A study of Homo sapiens with 2 samples.

Results

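Immunoglobulin and T cell receptor V segments, the germline pieces that B and T cells join to make antigen receptors, were examined in 2 peak lists of TCF19 ChIP-seq from Ishikawa cells, an epithelial line grown from a human endometrial cancer. The members were all RefSeq genes (GRCh38.p14) of the biotypes V segment and V segment pseudogene on chromosomes 1 to 22, which gave 438 of 56756 genes, 248 V segments and 190 pseudogenes. For 14 of them the table's position belongs to a sequence other than the chromosome it names, so 424 could be set against the lists. Of these, 408 lie in the 6 receptor loci and 16 outside them. A segment was called when a peak summit stood within 1000 bp of either of its ends. The segments were selected on their RefSeq biotype, and the set was chosen by its summit counts in these same lists, so all counts at the segments are descriptions.

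One population carried a lentivirus that overexpresses TCF19, a chromatin protein whose PHD finger can bind histone tails, and the other carried a control lentivirus. Both were selected with puromycin and were immunoprecipitated with the same antibody against TCF19, which also binds any endogenous TCF19. Each population gave 1 library without a replicate, so no test of the condition was possible, and the 95% intervals given here cover counting error only. The lists held 112212 summits with TCF19 overexpression and 170334 in control, at a depth recovered from the peak statistics of 51.8 and 57.96 reads per 10 kb. Every difference between the populations therefore comes with lists of unequal length. TCF19 itself had 3 summits in the overexpression list, the highest of 143 reads, and 0 in control.

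A receptor chain is encoded in pieces. In developing lymphocytes the RAG1 and RAG2 proteins cut at recombination signals beside a V segment and a J segment (with a D segment between them in the heavy, beta and delta chains), and end joining proteins seal the cut. Each signal begins with a conserved heptamer, CACAGTG, next to the coding piece. IGH encodes the antibody heavy chain, IGK and IGL the kappa and lambda light chains, and TRA, TRB and TRG the alpha, beta and gamma chains of the T cell receptor. The delta V segments lie within TRA and were counted with it. Epithelial cells do not rearrange these loci, and V segments are known as silent chromatin there. The peak lists hold no measure of expression, so that silence is background and was not checked.

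The promoter table used here holds no entry for any V segment, but 7 promoters of other genes share bases with one. The sequences below, from RefSeq on GRCh38.p14 and 5′ to 3′ on the strand of the named promoter, show what such a piece looks like. In the IGHV3-64, IGKV2-30 and IGLV3-1 sequences, capitals mark the bases of the V segment. IGHV3-64 lies under the promoter of LOC102724977 (chr14:106657645-106657944, plus strand), IGKV2-30 under that of LOC107985910 (chr2:89244711-89245010, minus strand) and IGLV3-1 under that of LOC102724638 (chr22:22881076-22881375, minus strand). They were chosen because the table holds them, with 1 from each immunoglobulin locus.
IGHV3-64: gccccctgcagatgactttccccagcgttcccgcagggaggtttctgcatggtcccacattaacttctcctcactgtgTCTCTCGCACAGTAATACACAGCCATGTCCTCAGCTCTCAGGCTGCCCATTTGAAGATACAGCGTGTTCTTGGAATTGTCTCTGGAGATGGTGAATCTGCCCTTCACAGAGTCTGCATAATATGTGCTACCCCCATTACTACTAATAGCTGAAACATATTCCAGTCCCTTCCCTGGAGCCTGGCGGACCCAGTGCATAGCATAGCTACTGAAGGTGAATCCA
IGKV2-30: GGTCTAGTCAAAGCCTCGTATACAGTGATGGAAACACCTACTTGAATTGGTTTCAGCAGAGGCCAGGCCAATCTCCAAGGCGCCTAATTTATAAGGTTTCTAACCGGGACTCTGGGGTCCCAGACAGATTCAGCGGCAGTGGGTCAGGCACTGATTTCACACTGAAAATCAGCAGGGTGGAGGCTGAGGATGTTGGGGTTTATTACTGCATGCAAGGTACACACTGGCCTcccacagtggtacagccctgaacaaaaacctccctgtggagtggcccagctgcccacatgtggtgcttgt
IGLV3-1: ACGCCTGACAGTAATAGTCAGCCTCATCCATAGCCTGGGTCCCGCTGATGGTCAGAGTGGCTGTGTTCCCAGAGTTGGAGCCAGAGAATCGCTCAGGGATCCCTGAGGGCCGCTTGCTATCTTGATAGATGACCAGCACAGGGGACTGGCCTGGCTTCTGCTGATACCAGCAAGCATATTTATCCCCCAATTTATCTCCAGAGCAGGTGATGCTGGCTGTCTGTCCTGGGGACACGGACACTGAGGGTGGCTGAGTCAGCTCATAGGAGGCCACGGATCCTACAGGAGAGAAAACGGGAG

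The heptamer was searched on both strands. It directly abutted the IGHV3-64 bases, read there on the other strand as cactgtg, and it stood 2 bases beyond those of IGKV2-30. Of all 34796 promoters of this length, 5.37% hold this heptamer and 1.76% the octamer ATGCAAAT, which is a known element of V segment promoters. The octamer was in none of the 3 sequences, whose windows are not V segment promoters. IGHV3-64 and IGKV2-30 had no summit within 1000 bp in either list. IGLV3-1 was called in both, with 14 reads in each list, at -58 bp from its lower end with TCF19 overexpression and at -40 bp in control, where negative is below that end.

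Summits were called at 64 of the 424 placed segments with TCF19 overexpression (15.1%, Wilson interval 12 to 18.8) and at 127 in control (30.0%, 25.8 to 34.5). Among all other RefSeq genes the called share was 39.9% with TCF19 overexpression and 38.5% in control. Among other genes of at most 1000 bp, closer in length to the segments (median 467 bp), it was 16.4% with TCF19 overexpression and 20.3% in control. Tiles of 2500 bp in the 500 kb on each side of the loci held a summit in 9.59% with TCF19 overexpression and 13.0% in control. The V segments of all loci counted as one thus stood below genes in general in both lists and above the pooled tiles. The tiles number 201 beside IGH and 400 beside each other locus, so they weight the loci unlike the segments. The share of short genes lies inside the segments' counting interval with TCF19 overexpression and below it in control.

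Both lists called the same 54 segments (12.7%, 9.9 to 16.2), where the called share in both lists was 30.2% among all other genes, 11.9% among short genes and 5.72% among tiles. A further 10 were called with TCF19 overexpression alone and 73 in control alone, and 287 in neither. The shared segments made up 84.4% of those called with TCF19 overexpression and 42.5% of those called in control. Segments and pseudogenes were called in like shares. Of 235 V segments, 37 were called with TCF19 overexpression (15.7%) and 72 in control (30.6%), and of 189 pseudogenes, 27 with TCF19 overexpression (14.3%) and 55 in control (29.1%). The calls rested on 66 distinct summits with TCF19 overexpression and 136 in control, and only 2 with TCF19 overexpression and 3 in control stood near more than 1 segment. Beyond the limit of 1000 bp the nearest uncalled segment was IGLV3-16 at 1051 bp with TCF19 overexpression and TRGV11 at 1031 bp in control. The outermost called one was IGLVI-42 at 940 bp with TCF19 overexpression and TRBV24OR9-2 at 993 bp in control.

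**Figure D1:**
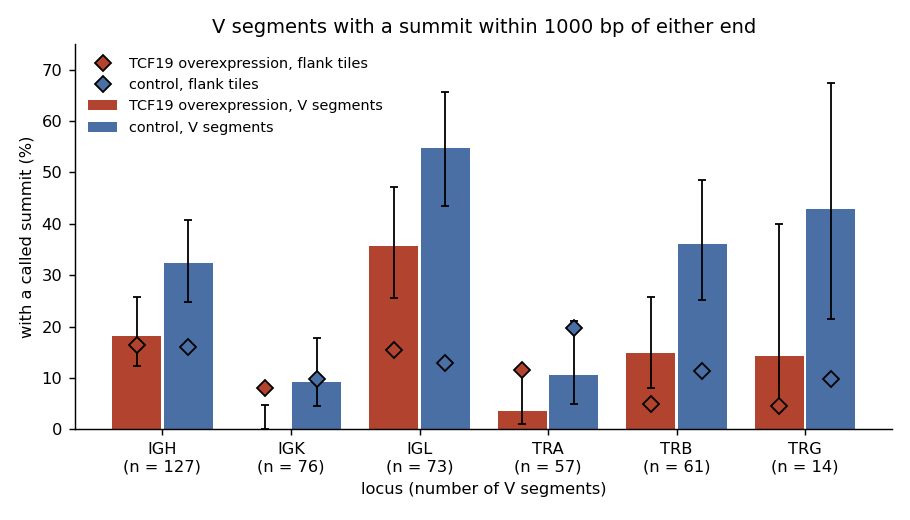
Share of V segments with a called summit within 1000 bp of either end (bars, %, with Wilson 95% intervals that cover counting error only) and share of 2500 bp tiles in the 500 kb flanks with a summit (diamonds, %) in each receptor locus, TCF19 overexpression left and control right. IGL has the tallest bars among the larger loci, 35.6% with TCF19 overexpression and 54.8% in control, and IGK has no called segment with TCF19 overexpression.

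The loci differed from each other. In IGL, 26 of 73 segments were called with TCF19 overexpression and 40 in control, 23 of them in both. In IGH, the counts were 23 of 127 with TCF19 overexpression and 41 in control, with 17 in both. TRB had 9 of 61 with TCF19 overexpression, all of them also called in control, and 22 in control. At the other end, TRA had 2 of 57 with TCF19 overexpression and 6 in control, and IGK had 0 of 76 with TCF19 overexpression, which allows a share of up to 4.8%, and 7 in control. TRG, the smallest locus, had 2 of 14 with TCF19 overexpression and 6 in control, with intervals too wide to place it.

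Flank tiles did not follow the same order. They were called in 15.5% with TCF19 overexpression and 13.0% in control beside IGL, and in 5.0% with TCF19 overexpression and 11.25% in control beside TRB. In IGH, where 18.1% of segments were called with TCF19 overexpression and 32.3% in control, tiles were called in 16.4% and 15.9%. Beside TRA they reached 11.5% with TCF19 overexpression and 19.75% in control, above the share of its segments in both lists (3.5% with TCF19 overexpression and 10.5% in control). The local read background at called segments, over the genome average, had a median of 1.43 with TCF19 overexpression and 1.56 in control in IGL. In IGH it was 1.06 with TCF19 overexpression and 1.04 in control, and in TRA it was at the average in both. The part of this background in the differences between loci was not tested.

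Counted over whole loci, from the first to the last V segment, summit density was set against that of the flanks. The density relative to the flanks was 0.84 with TCF19 overexpression (0.69 to 1.03) and 1.22 in control (1.04 to 1.43). Neither value was stable across settings. With TCF19 overexpression it was 1.19 with only summits of at least 4-fold enrichment, the authors' value, 1.08 without IGKV copies and segments outside the loci, and 0.77 (0.65 to 0.92) with flanks of 1000 kb. In control it was 1.04 (0.85 to 1.27) with flanks of 200 kb. By locus it was 1.07 with TCF19 overexpression and 1.93 in control in IGL, and 1.48 with TCF19 overexpression and 2.16 in control in TRB. TRG, with 5 summits with TCF19 overexpression and 8 in control, had 3.11 with TCF19 overexpression and 2.33 in control. It was 0.69 with TCF19 overexpression and 1.19 in control in IGH, and with flanks of 200 kb the overexpression value there was 1.35. With only summits of at least 4-fold enrichment it was 2.14 with TCF19 overexpression and 3.28 in control in IGH, and 2.88 with TCF19 overexpression and 4.81 in control in IGL. In IGK it was 0.46 with TCF19 overexpression (0.26 to 0.78) and 0.73 in control (0.47 to 1.11). Without IGKV copies the IGK value was 1.00 with TCF19 overexpression (0.19 to 3.30) and 2.21 in control (0.87 to 4.95). Leaving out the copies also shortens the counted IGK stretch, and its upper flank then holds kappa segments that were left out. These values therefore do not set the whole locus against its neighbours, and the pooled value at this setting carries the same change. At equal list lengths the value of the whole IGK locus was 0.94 in control (0.57 to 1.57). It was 0.28 with TCF19 overexpression (0.14 to 0.53) and 0.55 in control (0.36 to 0.81) in TRA, where both intervals lie below 1. The control value there was 0.83 (0.51 to 1.32) at equal list lengths and 0.70 (0.35 to 1.35) with only summits of at least 4-fold enrichment. Its interval stayed below 1 at the other settings. The IGH flanks cover only 503600 bp, because no summit is listed farther up the chromosome, and its lower part holds the heavy chain constant genes.

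Within the loci counted as one, summits were gathered at the segments, and by locus this rested on IGH, IGL and TRB. The windows within 1000 bp of a segment covered 21.2% of the loci and held 36.5% of their summits with TCF19 overexpression and 40.4% in control. Summit density in these windows relative to the rest of the locus was 2.13 with TCF19 overexpression (1.53 to 2.94) and 2.51 in control (1.99 to 3.16). It was 2.52 with TCF19 overexpression and 3.22 in control in IGL, 2.45 with TCF19 overexpression and 2.50 in control in IGH, and 3.19 with TCF19 overexpression and 2.48 in control in TRB. In TRA it was 0.89 with TCF19 overexpression (0.10 to 4.06) and 0.91 in control (0.31 to 2.21), intervals too wide to tell whether summits there lay nearer to segments. IGK had 0 summits in its windows with TCF19 overexpression and a ratio of 1.08 in control. In TRG the ratio was 0.34 with TCF19 overexpression (0.007 to 3.41) and 4.05 in control (0.72 to 41.0), again too wide to tell.

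**Figure D2:**
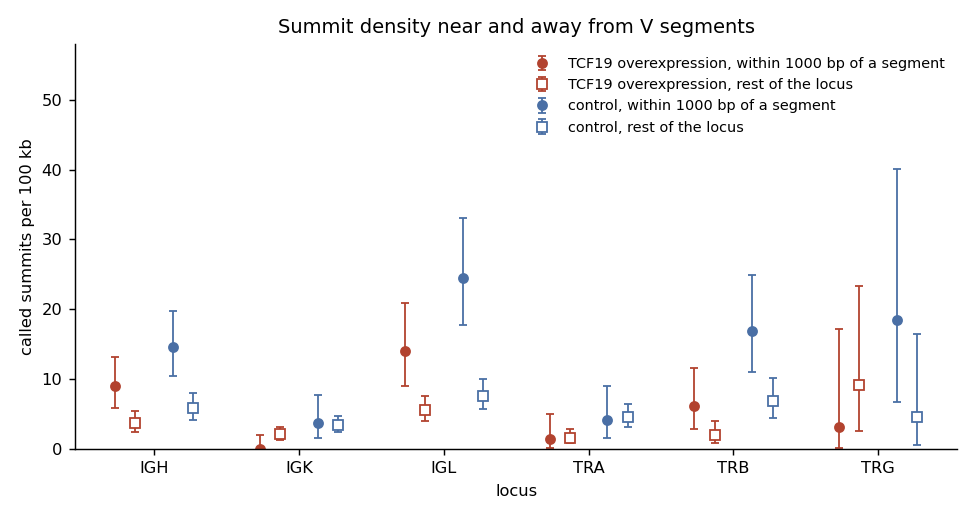
Called summits per 100 kb within 1000 bp of a V segment (filled circles) and in the rest of each locus (open squares), TCF19 overexpression in red and control in blue, with exact Poisson 95% intervals. In IGH, IGL and TRB the circles lie above the squares in both lists, and in TRA they lie side by side.

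The gathering was tight. Within 500 bp of the centre of a segment there were 9.31 summits per 100 kb with TCF19 overexpression, against 3.87 at 2500 to 5000 bp, a ratio of 2.41 (1.59 to 3.58). In control the densities were 23.3 per 100 kb near the centre and 7.25 farther out, a ratio of 3.21 (2.45 to 4.18). The genome average was 3.84 per 100 kb with TCF19 overexpression and 5.79 in control, and the density near the centre stood above it in both lists. The stretch at 2500 to 5000 bp was taken around each segment, so it can include neighbouring segments and their summits. Outside all windows of 1000 bp, the loci held 2.99 summits per 100 kb with TCF19 overexpression (2.45 to 3.61), below the genome average. In control they held 5.24 (4.52 to 6.04), an interval that includes the genome average. Relative to control, the overexpression list had 0.48 times as many summits in the windows (0.35 to 0.66), 0.57 times in the rest of the loci, 0.77 times in the flanks (0.65 to 0.92) and 0.66 times on chromosomes 1 to 22. The upper end of the interval in the windows (0.661) lies so near the genome value (0.663) that no difference is read from it. Each list is 1 library, and the lists differ in length.

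**Figure D3:**
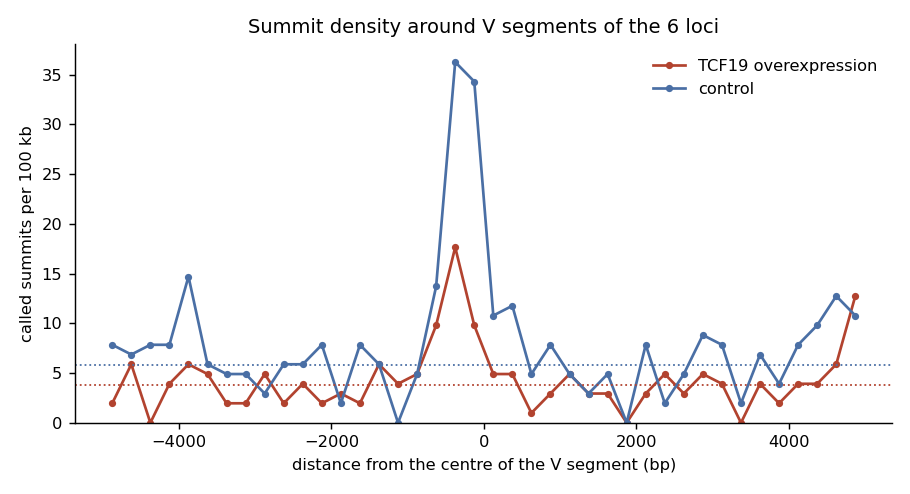
Called summits per 100 kb (vertical axis) in 250 bp bins by distance in bp from the centre of each of 408 V segments in the 6 loci, TCF19 overexpression in red and control in blue; dotted lines mark the average over chromosomes 1 to 22. Both curves peak in the bin centred 375 bp below the centre, at 17.6 with TCF19 overexpression and 36.3 in control.

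The peak of the profile was not centred. Of the called segments, 24 of 64 with TCF19 overexpression and 51 of 127 in control had their summit within 150 bp of the lower end, and 6 with TCF19 overexpression and 15 in control within 150 bp of the higher end. Most of those at the lower end were in IGH (12 with TCF19 overexpression and 18 in control) and IGL (10 with TCF19 overexpression and 18 in control). In TRB they were 2 of 9 with TCF19 overexpression, with 2 more at the higher end, and 9 of 22 in control. In TRG they were 0 of 6 in control. The lower end is not the same functional end in each locus. IGL segments are known to be read toward higher coordinates, so their lower end is the leader end, and IGH segments are read toward lower ones, so theirs lies beside the recombination signal. The gene table gives no strand for these segments.

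V segments are grouped into families by sequence, and the families differed. Among 19 families with at least 5 placed members, most members were called in 3 with TCF19 overexpression and in 5 in control. No member was called in 8 families with TCF19 overexpression and in 1 family, IGKV2, in control. In the heavy chain locus, IGHV4, a family of 9, had 7 called with TCF19 overexpression and 7 in control, 6 of them in both, with summits at a median of -41 bp from the lower end with TCF19 overexpression and -52 bp in control (negative is below that end). IGHV3, the largest family with 48 placed members, had 7 called with TCF19 overexpression and 16 in control. IGHVIII, a pseudogene family, had 5 of 17 called with TCF19 overexpression and 7 in control, and each of those summits lay below the lower end.

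The highest summit at any V segment was at IGHV4-30-2 (chr14:106349283-106349720), with 46 reads with TCF19 overexpression (33.7 to 61.4) and 31 in control (21.1 to 44.0). These were 8.06-fold and 6.56-fold enriched in their own lists. The local read background at IGHV4-30-2 was 3.38 times the genome average with TCF19 overexpression and 2.45 times in control. Those were the highest at any called heavy chain segment. IGHV4-4 had 11 reads with TCF19 overexpression and 16 in control. IGHV4-55 had 17 reads with TCF19 overexpression and 9 in control, while IGHV4-80 had 12 with TCF19 overexpression and 20 in control. IGHV3-7 had 13 with TCF19 overexpression and 18 in control, IGHVIII-16-1 had 16 with TCF19 overexpression and 12 in control, and IGHV3-21 had 12 with TCF19 overexpression and 15 in control. IGHV3-32, a pseudogene, was called in control alone, with 21 reads. These segments were picked by their fold in either list, so a mixed order of the libraries comes with the choice. The counting intervals of the libraries stood apart at 0 of the 17 heavy chain segments called in both lists.

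Among lambda families of at least 5 members, 2 had the highest called shares. IGLV2, a family of 9, had 7 called with TCF19 overexpression and 8 in control, and all 7 were among the 8. IGLV1 had 6 of 8 with TCF19 overexpression and 7 in control. The larger IGLV3 had 5 of 23 with TCF19 overexpression and 11 in control. The families differed in where the summit stood. In IGLV2 its median distance from the lower end was -71 bp with TCF19 overexpression and -61.5 bp in control. In IGLV1 it was 459 bp above the lower end with TCF19 overexpression and 327 bp above it in control, toward the higher end.

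Pileups at called lambda segments ran between 9 and 18 reads with TCF19 overexpression and between 6 and 18 in control. IGLV9-49 had 18 reads with TCF19 overexpression and 15 in control, and IGLV2-34 had 17 with TCF19 overexpression and 12 in control. IGLV3-12 had 16 with TCF19 overexpression and 8 in control, and IGLVV-66 had 16 with TCF19 overexpression and 14 in control. IGLV1-47 had 14 reads with TCF19 overexpression and 18 in control, IGLV1-40 had 14 with TCF19 overexpression and 18 in control, and IGLV3-30 had 13 with TCF19 overexpression and 17 in control. Lambda segments were named by the same choice, so the order of the libraries among them is not a result. IGLVI-42, a pseudogene, had 11 with TCF19 overexpression and 12 in control. IGLV10-67, a pseudogene, was called in control alone, with 12 reads.

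VPREB1, which lies among the lambda segments, encodes part of the surrogate light chain that pairs with the heavy chain in early B cells. Its promoter (chr22:22244536-22244835, plus strand) holds a summit in each list, at base 286 with TCF19 overexpression and at base 290 in control, counted from 1 at its 5′ end. Capitals mark the bases within 10 of either summit, shown because this is the gene of B cell development in the locus whose promoter both lists hold.
VPREB1 promoter: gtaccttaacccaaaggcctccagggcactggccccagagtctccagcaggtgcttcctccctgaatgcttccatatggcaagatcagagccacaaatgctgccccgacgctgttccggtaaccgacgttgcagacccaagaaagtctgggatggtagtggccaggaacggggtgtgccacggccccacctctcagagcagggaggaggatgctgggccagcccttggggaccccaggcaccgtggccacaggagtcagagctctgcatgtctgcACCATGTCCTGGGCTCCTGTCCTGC
The highest summit at this gene had 13 reads with TCF19 overexpression (6.9 to 22.2) and 16 in control (9.1 to 26.0), with counting intervals that overlap. The promoter holds neither the heptamer nor the octamer.

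Kappa segments had the lowest called share of the 6 loci in both lists. Of the 76 placed, 69 have a near-identical copy across the duplicated locus, where short reads may not be placed with certainty, so their values are uncertain and so is their absence from a list. With TCF19 overexpression none was called, and in control IGKV1-6, IGKV3-7, IGKV3-15 and IGKV3D-20 had 10 reads each. IGKV1D-42 had 9, and the remaining called ones, IGKV3D-11 and IGKV3-20, named to complete the 7, had 10 and 8. IGKV1 had 2 of 29 segments called in control, IGKV3 had 5 of 14 and IGKV2 had 0 of 27. The longest stretch without a summit covered 654.8 kb and 37 segments with TCF19 overexpression, and 277.4 kb and 8 segments in control. Whether reads can be placed in these stretches was not analysed here.

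T cell receptor beta segments, like those of each other locus, were called more in control than in the overexpression list. Relative to control, the overexpression list had 0.36 times as many summits in the TRB windows (0.15 to 0.80). In the TRB flanks it had 0.47 times as many (0.26 to 0.80). TRBV5, a family of 7, had 0 called with TCF19 overexpression and 6 in control, where pileups ran between 7 and 16 reads. Among the highest folds of the locus in control were TRBV5-1 with 14 reads, TRBV5-7 with 13 and TRBV5-6 with 16. TRBV6, also of 7, had 3 called with TCF19 overexpression and 5 in control. TRBV6-4 was called in control alone, with 15 reads, and TRBV6-7 had 10 with TCF19 overexpression and 16 in control. TRBV6-3 had 15 reads with TCF19 overexpression (8.4 to 24.7) and 18 in control, and TRBV6-8 had 8 with TCF19 overexpression and 18 in control. TRBV20-1, TRBV21-1 and TRBV10-2 had 9 reads each with TCF19 overexpression and 11 each in control. The lowest pileup called at an average background was 6 reads in both libraries. Called beta segments had a median of 9 reads with TCF19 overexpression and 12.5 in control. The lists hold called summits only, so absence from the overexpression list was not shown to be absence of reads.

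Gamma segments showed a recurring position in control, at 5 of the 6 called there. Whether reads can be placed with certainty at these segments was not analysed. TRGV2, TRGV4, TRGV5, TRGV6 and TRGV9 had their control summit above the higher end, at 252, 305, 356, 228 and 295 bp from it, with 14, 10, 7, 13 and 9 reads. None of these 5 was called with TCF19 overexpression. TRGVA, a pseudogene, was called in both lists, with 8 reads with TCF19 overexpression and 11 in control, and TRGV11 in the overexpression list alone, with 11 reads. The summit at TRGV6 falls in the promoter of TRG-AS1, an antisense gene of the locus (chr7:38341171-38341470, plus strand), at base 229, and capitals mark the 21 bases centred on it.
TRG-AS1 promoter: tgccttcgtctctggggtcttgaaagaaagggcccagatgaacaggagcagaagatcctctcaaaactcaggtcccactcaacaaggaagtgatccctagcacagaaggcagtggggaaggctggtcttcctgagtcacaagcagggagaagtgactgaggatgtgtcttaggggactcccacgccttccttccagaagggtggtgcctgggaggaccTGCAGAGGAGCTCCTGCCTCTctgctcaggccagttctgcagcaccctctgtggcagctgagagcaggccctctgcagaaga
This stretch holds neither the heptamer nor the octamer.

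Alpha segments had few calls in either list. TRAV27 had the highest fold of the V segments in control, 7.36, with 18 reads (10.7 to 28.4), and 8 reads with TCF19 overexpression (3.5 to 15.8). TRAV1-2 had 8 reads with TCF19 overexpression and 7 in control. Among the 4 called in control alone, TRAV3 had 13 reads, TRAV8-4 had 11 and TRAV12-2 had 8. Outside the loci, IGLV8OR8-1 had 11 reads with TCF19 overexpression and 13 in control, and TRBV29OR9-2 had 14 with TCF19 overexpression and 12 in control. TRBV20OR9-2, TRBV24OR9-2 and LOC124905154 were called in control alone, with 16, 13 and 9 reads. These are copies of segments elsewhere, so their reads are uncertain too.

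At the 54 segments called in both lists, the overexpression pileup relative to control, each scaled to its depth, had a median of 0.94 and ran between 0.50 and 2.24. It was above 1 at 25 of them. Among the lambda segments it was above 1 at 17 of 23 (median 1.12), among the heavy chain segments at 6 of 17 (median 0.80) and among the beta segments at 0 of 9 (median 0.92). The summits of the libraries stood within 100 bp of each other at 26 of the 54, at a median distance of 102.5 bp. The counting intervals of the libraries stood apart at 0 of the 54, IGHV4-30-2 included. Segments called in 1 list alone were not much lower: their median pileup was 11 reads with TCF19 overexpression alone and 11 in control alone, and at the shared segments it was 11 with TCF19 overexpression and 13 in control.

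**Figure D4:**
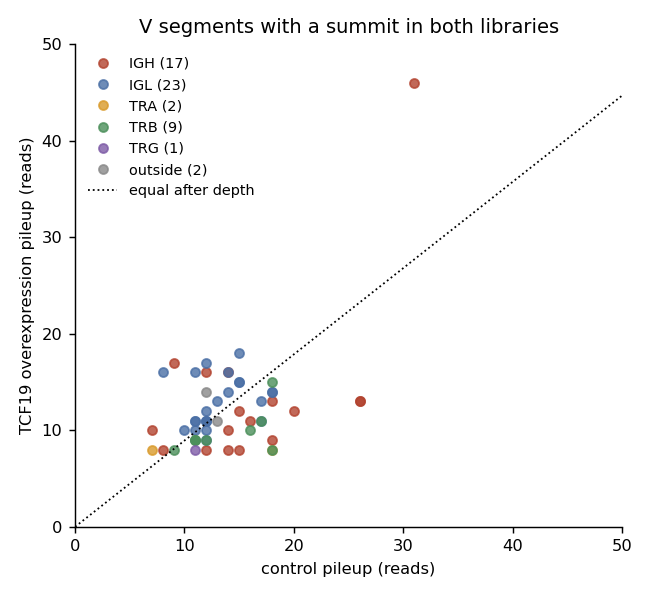
Summit pileup in reads with TCF19 overexpression (vertical axis) against control (horizontal axis) at the 54 V segments called in both lists, coloured by locus with the number of segments; points can overlap, and the dotted line marks equal pileups after scaling to depth. IGHV4-30-2 stands alone at 46 reads with TCF19 overexpression and 31 in control, and all others lie at 18 reads or fewer with TCF19 overexpression.

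Genes of the recombination machinery were counted in the same way, and 12 genes are too few to place against the share of protein-coding genes. Of 12 genes of V(D)J recombination and end joining, 10 had a summit at a gene end with TCF19 overexpression and 4 in control, all 4 in both. The called share of protein-coding genes was 65.5% with TCF19 overexpression, 54.7% in control and 49.1% in both, and the same shares stand behind the lists that follow. RAG1, a subunit of the recombinase, had 20 reads with TCF19 overexpression (12.2 to 30.9) and 11 in control (5.5 to 19.7). LIG4, the ligase that seals the joint, had 9 with TCF19 overexpression and 15 in control, XRCC6, a Ku subunit, had 21 with TCF19 overexpression and 22 in control, and HMGB1, a DNA bending protein, had 16 with TCF19 overexpression and 10 in control. Called with TCF19 overexpression alone were DCLRE1C (the hairpin opening nuclease Artemis), PRKDC (the kinase DNA-PKcs), XRCC5 (the other Ku subunit), XRCC4 and NHEJ1 (partners of the ligase) and HMGB2. RAG2, the other recombinase subunit, and DNTT, which adds untemplated bases, were called in neither list. This list was compiled with results of these data known, and end joining proteins serve repair in all cells.

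Of 20 genes of receptor complexes and B or T cell identity, 11 had a summit with TCF19 overexpression and 10 in control, 7 in both. These 20 genes are also too few to place against the share of protein-coding genes (65.5% with TCF19 overexpression, 54.7% in control and 49.1% in both). IGLL1, VPREB1, CD3G, CD247, CD8B and LCK were among those called in both. CD79A, CD79B, EBF1 and CD3E were called with TCF19 overexpression alone, and CD2 and CD8A were among those called in control alone. MS4A1, PAX5, VPREB3, CD3D, CD4 and ZAP70 were called in neither. Of 12 epithelial genes, 10 were called with TCF19 overexpression and 11 in control, 9 of them in both, among them EPCAM, CDH1, KRT8 and KRT18. KRT19 was called with TCF19 overexpression alone, and GRHL2 and PAX8 in control alone. POU2F1 and POU2AF1, an octamer factor and the octamer factors' partner, were called in both lists, and POU2F2, the lymphoid octamer factor, in neither. A summit at a gene end is not expression, so these counts say nothing of which cell type was present.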

How the data were processed

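TCF19 ChIP-seq peak lists from Ishikawa cells, 1 library with TCF19 overexpression and 1 control, were used as deposited, grouped by the genotype label. Per the submitters' processing notes, the tools were BWA 0.7.12, an aligner, and MACS2 2.1.0, a peak caller, on hg38. Not given in the sources used here are their parameters and any input. The deposited files give per summit the authors' score, their fold enrichment (a ratio over local background), −log10 p-value, −log10 q-value and summit position. The deposited q-values start at 0.05. Peaks were called per library.

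Whole-read pileups and local backgrounds were recovered from the deposited fold and −log10 p (misfit at most 0.001) at 99.996% of summits with TCF19 overexpression and 99.997% in control. The values look like calls without an input library, so folds are not corrected for input. Depth was 51.8 reads per 10 kb with TCF19 overexpression and 57.96 in control. Gene positions came from RefSeq (GRCh38.p14), without strand or exons; 14 members placed on other sequences were left out. Intervals are Wilson for shares, exact Poisson for pileups and densities and exact conditional for ratios, at 95%. They cover counting error only, and reads may hold PCR copies. Python 3.11.15, numpy 2.4.6, scipy 1.17.1 and pandas 2.3.3 were used, and the steps were tested on simulated data.

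Named in each locus were up to 5 segments of highest fold in each list and up to 5 called in both, every called segment outside the loci, the listed genes and TCF19. Some listed genes are not reported here by name. Sequence examples, and segments given for a family's position, were chosen after their values were seen. The members and lists were chosen with earlier results of these data known. Alternatives changed the window, thresholds, flanks, list lengths and members.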

Additional observations from a re-analysis of the deposited data

How the results depend on the processing

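Counts of called segments were within 1.5 times of those reported under 7 of 8 settings, at 49 to 84 with TCF19 overexpression, 98 to 157 in control and 40 to 72 in both. The exception was a fold of at least 4, with 37 with TCF19 overexpression, 77 in control and 23 in both. Summit density of the loci over their flanks was then 1.19 with TCF19 overexpression and 1.63 in control. Without IGKV copies and segments outside the loci it was 1.08 with TCF19 overexpression and 1.55 in control. That setting also shortens the counted IGK stretch and puts left-out kappa segments into its upper flank. In control the density over flanks was 1.57 at equal list lengths and 1.04 with flanks of 200 kb. Equal list lengths leave the overexpression list, the shorter one, as it is and so do not try its values. The other density values ran between 0.77 and 0.97 with TCF19 overexpression and between 1.16 and 1.29 in control. The cause of these moves was not tested. At equal list lengths, control had 98 called segments. With all positions as the gene table gives them, an alternative chosen after seeing the data, 65 of 438 were called with TCF19 overexpression, 128 in control and 55 in both.

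No paired analysis was possible because each group had 1 library, and leaving out a replicate was not possible either. Depth limits the calls, since the lowest pileup called at an average background was 6 reads in both libraries.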

Other observations

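The other pieces of the receptor genes were called as follows. Of 32 D segments, 1 was called with TCF19 overexpression and 0 in control. Of 105 J segments, 21 were called with TCF19 overexpression, on 9 distinct summits, and 14 in control, on 8, since J segments lie close together. These are 20.0% with TCF19 overexpression and 13.3% in control, where the called share of other genes of at most 1000 bp was 16.4% with TCF19 overexpression and 20.3% in control. The TRBJ2 cluster had summits of up to 25 reads with TCF19 overexpression and 16 in control. IGHD7-27, IGHJ1, IGHJ2, IGHJ3 and IGHJ4, with the pseudogenes IGHJ1P and IGHJ2P, shared 1 summit of 16 reads with TCF19 overexpression and had none in control. TRAJ16 was called with TCF19 overexpression alone, with 19 reads. Of 25 C regions, which encode the constant part of the chain, 7 were called with TCF19 overexpression (28.0%) and 6 in control (24.0%), where the called share of all other genes was 39.9% with TCF19 overexpression and 38.5% in control. IGLC2 had 35 reads with TCF19 overexpression (24.4 to 48.7) and 37 in control (26.1 to 51.0), with counting intervals that overlap. IGLC2 has near-identical neighbours, so its reads are uncertain. IGHEP1, a pseudogene, had 22 reads with TCF19 overexpression and 27 in control, and TRBC1 had 15 with TCF19 overexpression and 12 in control.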
